A study of Mus musculus with 10 samples.

Results

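The expression of 49 listed genes of mitosis was followed across naïve and cultured mouse T cells: mitotic cyclins and kinases, the chromosomal passenger complex, the spindle checkpoint, the kinetochore, kinesin motors, spindle and cytokinesis factors, and condensin with its partners on chromosomes. The genes were chosen by name, and 48 of the 49 could be read among the 18193 genes of the array table. The exception is *Ccnb1*, the gene of cyclin B1, which the probe annotation used here does not name and which was not analysed here. Where a gene had several probe sets, the one with the highest mean over the 10 arrays was used.

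The 10 Affymetrix whole-genome mouse arrays form 5 groups of 2, and all cells came from the spleen of wild-type C57BL/6 mice. Naïve CD4+ cells were sorted as TCRβ+ CD4+ CD62L+ CD44-, and naïve CD8+ cells as TCRβ+ CD8+ CD62L+ CD44-. CD4+ and CD8+ effector-memory (TEM) cells were raised from such naïve cells with IL-2 and irradiated feeder cells, a LMP1/2A+ B lymphoma line renewed every week, and were taken on day 25. LMP1 and LMP2A are Epstein-Barr virus membrane proteins that mimic CD40 and B cell receptor signals. The fifth group, CD4+ memory cells of day 25, is named by its labels as memory induced from naïve CD4+ cells and carries CM in its titles. In the study's flow cytometry TEM cells are CD62L- CD44+ and central-memory cells CD62L+ CD44+; the account of the array samples does not describe this group. Culture, antigen and IL-2 came together in all 3 cultured groups, so their parts cannot be told apart. Nothing in the labels says whether the replicates are separate mice or cultures, and the p-values below then measure only the spread between these arrays. Label entries that speak of germinal center B cells or of *Foxo1* alleles contradict the titles and were set aside.

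A cell that divides builds its mitotic machinery anew in each cycle. Transcription of these genes is held off in resting cells by the DREAM complex and switched on in G2 phase by B-Myb, MuvB and FoxM1, and many of the proteins are destroyed again through the anaphase-promoting complex (APC/C) as mitosis ends. CDK1 with its cyclins starts mitosis, the Polo-like and Aurora kinases build the spindle, the checkpoint delays anaphase until every kinetochore is attached, and centralspindlin with anillin cuts the cell apart. Naïve T cells rest outside the cycle, and activated T cells are among the fastest dividing cells of the adult body. In bulk samples such as these, more cells in cycle and more RNA per cycling cell cannot be told apart.

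Other values moved with the groups. *Gapdh* signal at the 3′ end exceeded that at the 5′ end by 2.42 to 2.75 (log2) on the 4 naïve arrays and by 0.91 to 1.72 on the 6 cultured arrays. This gap follows RNA integrity and labelling, and its part in the results below was not tested. Of 12 measured B cell and MHC class II markers, 8 were called higher in CD4+ TEM, 8 in CD8+ TEM and 10 in memory cells than in naïve cells. The summed linear signal of the 12 was 352 to 2641 on naïve arrays, 17725 to 19942 in CD4+ TEM, 14748 to 16105 in memory and 37086 to 37910 in CD8+ TEM cells. *Pax5*, which defines the B lineage, stayed at 3.58 to 4.33 on all 10 arrays, whereas *Ebf1*, another B lineage factor, read 10.19 to 10.82 on the 6 cultured arrays. The feeder cells are a B lymphoma line, and the part of their RNA in the mitotic signal was not tested. Naïve CD8+ replicate 2 stood apart from replicate 1 in *Ms4a1* (7.01 against 3.15) and in the myeloid gene *Lyz2* (8.70 against 5.20), while its members of the mitotic list gave a median of -0.10 for replicate 1 minus replicate 2.

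Nearly the whole mitotic list was higher after culture, in both lineages. In CD4+ TEM cells 47 of 48 members were called higher than in naïve CD4+ cells and 1 was called lower, with a median log2 fold change of 3.79 (limma, adjusted p under 0.05). Over all 18193 genes, 16.4% were called higher and 10.1% lower in that comparison, and the median was 0.02. In CD8+ TEM cells 43 were called higher and 2 lower, with a median of 3.61, against 20.9% and 17.2% of all genes and a median of 0.06. CD4+ memory cells had 46 higher and 1 lower, with a median of 3.66, against 13.5% and 9.78% of all genes and a median of 0.08. The comparisons of CD4+ TEM and memory cells share their naïve arrays, so they are not independent of each other.

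The separation of the arrays was wide. For 43 of 48 members all 6 cultured arrays read higher than all 4 naïve arrays, which was so for 13.2% of all genes. The median member stood at 4.74 and 5.04 on the naïve CD4+ arrays and at 5.57 and 5.63 on the naïve CD8+ arrays. It stood at 9.19 and 9.16 in CD4+ TEM, at 9.06 and 8.68 in memory, and at 9.39 and 9.19 in CD8+ TEM cells. At least 6 on the log2 scale was reached by 10 and 14 members on the naïve CD4+ arrays, by 22 and 19 on the naïve CD8+ arrays, and by 44 to 47 on each cultured array. Values near the bottom of the scale are compressed by background, so fold changes of members that were dim in naïve cells can be understated. Of the other 5, *Aurka*, *Incenp*, *Kif23* and *Racgap1* had arrays that overlapped, and *Smc4* was separated in the opposite direction, with all 4 naïve arrays above all 6 cultured arrays.

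**Figure D1:**
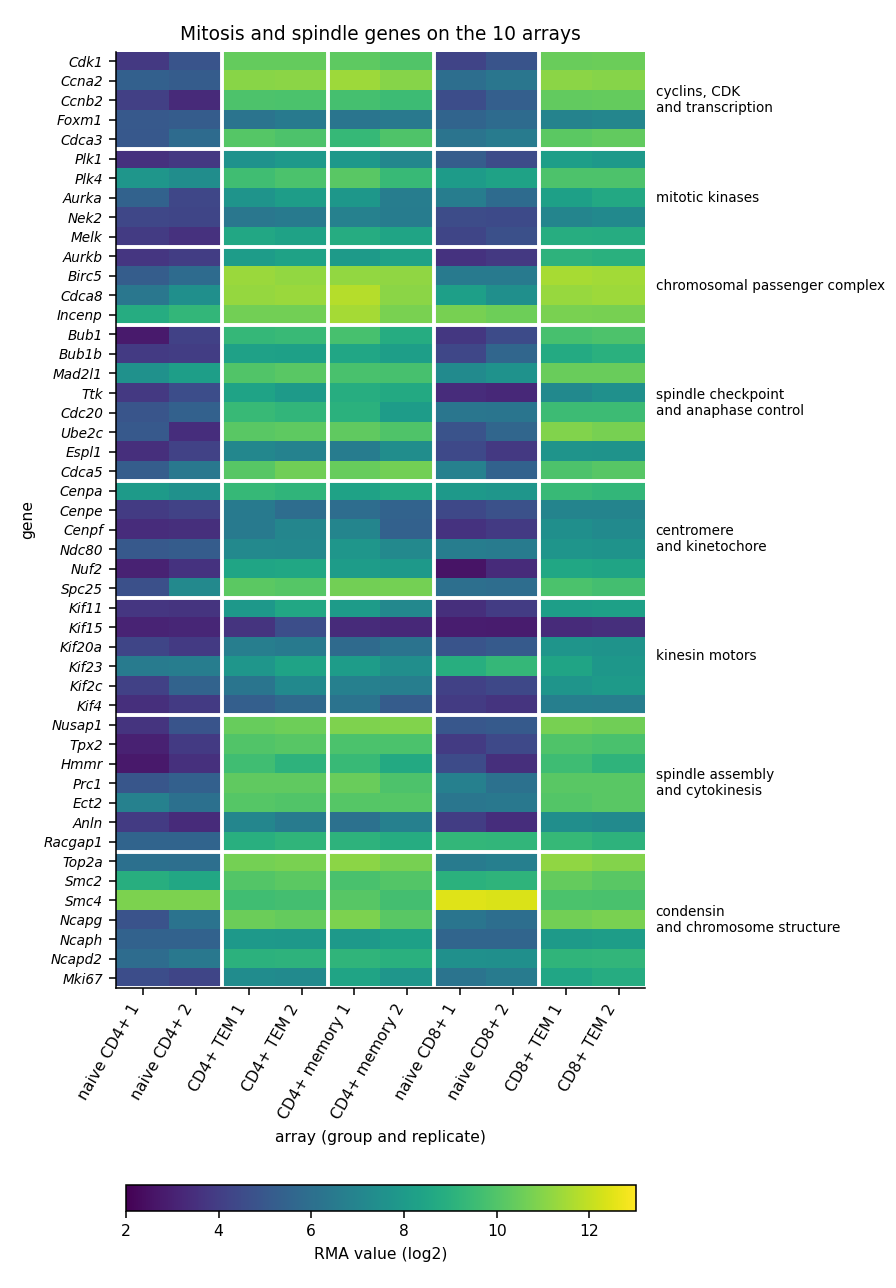
Deposited RMA value (log2, colour scale) of the 48 measured members (rows, grouped by role) on each of the 10 arrays (columns, grouped by cell type). The naïve columns are dark and the cultured columns light for most rows; *Smc4* is lighter in the naïve columns, and *Incenp*, *Kif23* and *Racgap1* are already light in the naïve CD8+ columns.

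The promoters of these genes carry a recognisable layout, and 8 are shown for the members that the results below turn on. RefSeq promoter windows (build GRCm38.p6, 250 bases before to 50 after the annotated start) were matched for 41 of the 48 measured members, in 43 windows. The cell cycle genes homology region (CHR), bound by MuvB, was searched as TTTGAA and as its variant TTTAAA, and the box of the factor NF-Y as CCAAT, all on both strands, with TTTGAA and TTTAAA counted separately. The stretches below run from 100 bases before the start to 20 after it, 5′ to 3′ on the gene's strand, with every match of these 3 in capitals (ATTGG is CCAAT on the other strand). *Cdk1* (chr10:69352893-69353012, minus strand), *Ccnb2* (chr9:70421535-70421654, minus), *Cdc20* (chr4:118437324-118437443, minus) and *Hmmr* (chr11:40733418-40733537, minus) stand for members that changed strongly in both lineages. *Prc1* (chr7:80294351-80294470, plus), *Kif23* (chr9:61946780-61946899, minus) and *Racgap1* (chr15:99651637-99651756, minus) are members whose changes differed between the lineages, and *Melk* (chr4:44300817-44300936, plus) is one with no match in its window.
Cdk1: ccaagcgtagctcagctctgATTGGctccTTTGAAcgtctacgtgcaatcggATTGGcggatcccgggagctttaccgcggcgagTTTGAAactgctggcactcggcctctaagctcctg
Ccnb2: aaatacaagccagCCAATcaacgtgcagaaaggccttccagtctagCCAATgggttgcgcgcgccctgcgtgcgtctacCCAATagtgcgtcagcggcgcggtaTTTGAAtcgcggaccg
Cdc20: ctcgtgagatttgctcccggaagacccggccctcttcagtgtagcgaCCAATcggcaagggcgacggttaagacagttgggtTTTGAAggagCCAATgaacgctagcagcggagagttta
Hmmr: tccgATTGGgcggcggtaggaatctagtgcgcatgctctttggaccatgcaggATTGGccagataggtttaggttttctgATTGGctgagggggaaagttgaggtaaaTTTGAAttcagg
Prc1: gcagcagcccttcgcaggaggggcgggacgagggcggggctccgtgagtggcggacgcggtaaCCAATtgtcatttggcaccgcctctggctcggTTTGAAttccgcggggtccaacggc
Kif23: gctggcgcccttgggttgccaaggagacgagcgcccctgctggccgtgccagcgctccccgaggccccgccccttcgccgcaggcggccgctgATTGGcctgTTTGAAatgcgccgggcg
Racgap1: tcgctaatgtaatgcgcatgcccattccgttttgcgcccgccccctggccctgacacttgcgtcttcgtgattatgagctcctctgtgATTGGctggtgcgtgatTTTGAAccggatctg
Melk: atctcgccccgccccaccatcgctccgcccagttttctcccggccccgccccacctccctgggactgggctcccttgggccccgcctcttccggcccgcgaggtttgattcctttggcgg

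TTTGAA was present in 33 of the 43 member windows (76.7%), against 17.9% of all 32851 windows and 13.4% of the 18109 windows of measured genes. CCAAT was present in 72.1% of member windows, against 37.4% of all windows and 37.4% of those of measured genes. Both together occurred in 65.1% of member windows, against 6.95% and 5.23%. The variant TTTAAA occurred in 20.9% of member windows, against 13.2% of all. GCGCG, a core of E2F sites that is not marked in the stretches, was found in 72.1% of member windows, 29.7% of all windows and 44.5% of those of measured genes. No motif of these 4 was found in the windows of *Melk* and *Mad2l1*.

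The CHR matches lay close to the start. The median position of TTTGAA was base -9 in member windows and base -124 in all windows, where -1 is the base before the start and 1 the start itself. Of 43 matches in member windows 74.4% began at base -50 or later, against 25.3% of 6737 matches in all windows. In *Racgap1* and *Kif23*, which encode the 2 subunits of centralspindlin, an ATTGG before the start, at bases -12 and -7, was followed by a TTTGAA just after it, at bases 6 and 3. The 31 members with a TTTGAA had a median log2 fold change of 3.98 in CD4+ and 3.61 in CD8+ TEM cells, and the 10 without it 3.59 and 3.68. A match is a description of letters in the reference, and binding was not measured.

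**Figure D2:**
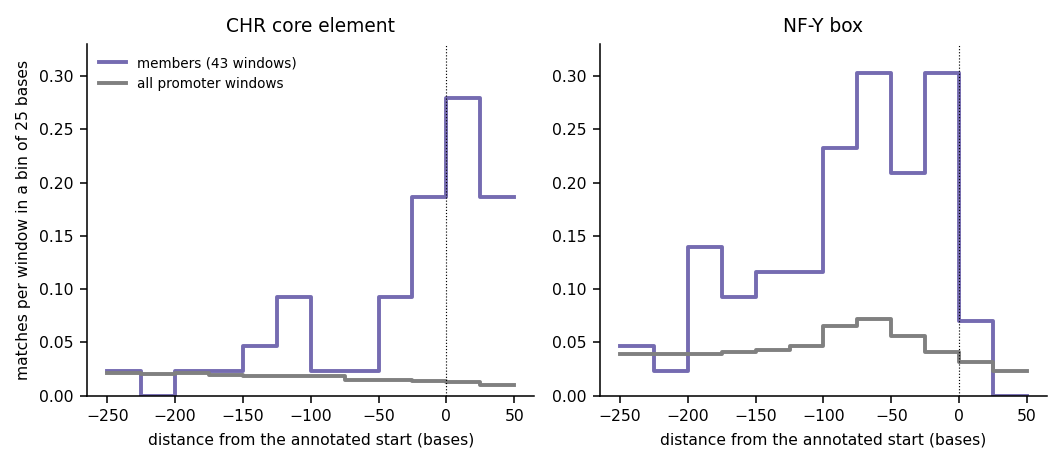
Matches per promoter window in bins of 25 bases (vertical axis) by distance from the annotated start (horizontal axis), for the CHR core element (left) and the NF-Y box (right), on both strands. In the 43 member windows (purple) CHR matches gather at the start, with a median at base -9, while those of all windows (grey) do not.

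Among cyclins, CDK1 and their transcription factor, 5 of 5 measured members rose in each cultured group. *Cdk1*, the kinase that starts mitosis, read 3.81 and 4.86 in naïve CD4+, 10.39 and 10.40 in CD4+ TEM, and 10.26 and 10.01 in memory cells. It read 4.26 and 4.87 in naïve CD8+ and 10.50 and 10.55 in CD8+ TEM cells. All 6 cultured arrays lay within 10.01 to 10.55, and the naïve arrays of both lineages overlapped. The log2 fold change was 6.06 (SE 0.33, limma adjusted p = 7.21e-06) in CD4+ TEM and 5.96 (SE 0.33, adjusted p = 6.05e-06) in CD8+ TEM cells. *Ccna2*, cyclin A2 of S and G2 phase, read 5.38 and 5.20 in naïve CD4+ and 5.96 and 6.31 in naïve CD8+ cells, and 10.99 to 11.40 on the cultured arrays. Its rise was 5.76 in CD4+ TEM, 5.91 in memory and 4.90 in CD8+ TEM cells. *Ccnb2*, cyclin B2, rose by 6.22 in CD4+ and 5.41 in CD8+ TEM cells, and *Cdca3*, an adaptor that helps to destroy the mitosis inhibitor Wee1, by 4.57 and 3.89.

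*Foxm1*, the transcription factor of many of these genes, moved least in this group. It read 5.09 and 5.20 in naïve CD4+, 6.24 and 6.54 in CD4+ TEM, 6.28 and 6.47 in memory, 5.54 and 5.86 in naïve CD8+, and 6.94 and 7.04 in CD8+ TEM cells. All cultured arrays lay above all naïve arrays, and the rise was 1.25 (SE 0.17, adjusted p = 0.00104) in CD4+ and 1.29 (SE 0.17, adjusted p = 0.000518) in CD8+ TEM cells. A further *Foxm1* probe set gave 2.36 and 2.31, one as bright as that used gave 0.95 and 0.85, and a dim one gave -0.35 and 0.08. The size thus depends on the probe set.

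All 5 mitotic kinases outside the passenger complex rose in each cultured group, with medians of 3.01 in CD4+ TEM, 2.43 in memory and 2.58 in CD8+ TEM cells. *Plk1*, the Polo-like kinase of mitotic entry and spindle assembly, read 3.59 and 3.82 in naïve CD4+, 7.59 and 7.92 in CD4+ TEM, 7.85 and 7.09 in memory, 5.23 and 4.56 in naïve CD8+, and 8.18 and 7.94 in CD8+ TEM cells. The log2 fold change was 4.05 (SE 0.30, adjusted p = 3.91e-05) in CD4+ and 3.17 (SE 0.30, adjusted p = 9.08e-05) in CD8+ cells. *Plk4*, the kinase that licenses centriole duplication, was measured above 7 in naïve cells already, at 7.80 and 7.38 in CD4+ and 8.03 and 8.35 in CD8+ cells. It rose by 2.15 and 1.74, to 9.62 and 9.87 in CD4+ and 9.95 and 9.91 in CD8+ TEM cells. *Melk* read 3.58 to 4.68 on the naïve arrays and 8.33 to 8.84 on the cultured arrays, without overlap. *Aurka*, the Aurora kinase of centrosomes, had the widest spread between replicates of these kinases, and naïve CD8+ replicate 1 read 6.66, above memory replicate 2 at 6.64.

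The chromosomal passenger complex corrects wrong kinetochore attachments and later organises cytokinesis. Its kinase *Aurkb* read 3.75 and 4.0 in naïve CD4+, 8.09 and 8.32 in CD4+ TEM, 8.0 and 8.33 in memory, 3.60 and 3.82 in naïve CD8+, and 9.12 and 9.0 in CD8+ TEM cells. The CD8+ TEM arrays were the highest, and the naïve arrays of both lineages overlapped. *Birc5* (survivin) rose by 5.73 in CD4+ and 4.99 in CD8+ TEM cells, and *Cdca8* (borealin) by 4.39 and 3.50. *Incenp*, the scaffold of the complex, stood apart. It read 8.80 and 9.26 in naïve CD4+, 10.64 and 10.66 in CD4+ TEM, and 11.50 and 10.79 in memory cells, but 10.74 and 10.59 in naïve CD8+ and 10.78 and 10.73 in CD8+ TEM cells. Naïve CD8+ cells were thus at the level of cultured cells, and the CD8+ change was 0.09 (SE 0.24, adjusted p = 0.833) while the CD4+ rise was 1.62 (SE 0.24, adjusted p = 0.00173). With the mean of its 5 probe sets the CD4+ change was 0.60 and not called (adjusted p = 0.0522).

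All 8 genes of the spindle checkpoint and of anaphase control rose in each cultured group, with medians of 4.26 in CD4+ TEM, 4.49 in memory and 3.88 in CD8+ TEM cells. *Bub1*, a checkpoint kinase at kinetochores, read 2.80 and 4.13 in naïve CD4+, 9.33 and 9.47 in CD4+ TEM, 9.78 and 8.82 in memory, 3.80 and 4.51 in naïve CD8+, and 9.80 and 9.94 in CD8+ TEM cells. The log2 fold change was 5.93 (SE 0.47, adjusted p = 4.92e-05) in CD4+ and 5.71 (SE 0.47, adjusted p = 3.75e-05) in CD8+ cells. *Mad2l1*, which binds CDC20 to hold back anaphase, read 7.28 to 8.15 on the naïve arrays, and rose by 2.25 in CD4+ and 3.03 in CD8+ TEM cells. *Cdc20*, the activator of the APC/C and target of the checkpoint, rose by 4.17 and 3.23, and *Ube2c*, the ubiquitin-conjugating enzyme of the APC/C, by 5.97 and 5.62. *Espl1* (separase, which cuts cohesin) rose by 3.16 and 3.54, and *Cdca5* (sororin, which protects cohesin) by 4.56 and 3.91. *Ttk*, the kinase that recruits the checkpoint to kinetochores, and *Bub1b* rose by 3.98 and 4.34 in CD4+ and by 4.05 and 3.86 in CD8+ TEM cells.

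The 6 centromere and kinetochore genes rose in each cultured group, with medians of 2.77 in CD4+ TEM, 2.56 in memory and 3.01 in CD8+ TEM cells. *Nuf2*, of the NDC80 complex that holds microtubules, read 3.07 and 3.62 in naïve CD4+, 8.45 and 8.57 in CD4+ TEM, 8.10 and 7.90 in memory, 2.56 and 3.33 in naïve CD8+, and 8.56 and 8.44 in CD8+ TEM cells. Its rise was 5.16 (SE 0.27, adjusted p = 5.84e-06) in CD4+ and 5.55 (SE 0.27, adjusted p = 3.19e-06) in CD8+ cells. *Spc25* and *Ndc80* of the same complex rose by 4.24 and 2.02 in CD4+ and by 3.80 and 1.06 in CD8+ TEM cells, although *Spc25* read 4.67 on one naïve CD4+ array and 7.19 on the other. *Cenpf* and the kinetochore motor *Cenpe* rose by 3.35 and 2.20 in CD4+ and by 3.61 and 2.41 in CD8+ TEM cells.

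*Cenpa*, the histone H3 variant that marks centromeres, read 8.0 and 7.56 in naïve CD4+, 9.36 and 9.20 in CD4+ TEM, 8.35 and 8.62 in memory, 7.95 and 7.78 in naïve CD8+, and 9.42 and 9.27 in CD8+ TEM cells. The rise was 1.5 (SE 0.19, adjusted p = 0.000617) in CD4+ TEM, 0.71 (SE 0.19, adjusted p = 0.0283) in memory and 1.48 (SE 0.19, adjusted p = 0.000388) in CD8+ TEM cells. The memory rise was not called without naïve CD4+ replicate 2 (adjusted p = 0.166) or memory replicate 2 (0.118). These values rest on the probe set with the highest signal. A dim second one changed by -1.39, -1.21 and -0.96, at 3.16 to 5.19 on all arrays. The remaining one also changed downward, by -0.55, -0.97 and -1.59. Its replicates were far apart in memory (4.12 and 7.06) and naïve CD8+ cells (8.44 and 5.40). The mean of the 3 *Cenpa* probe sets changed by -0.15, -0.49 and -0.35, so the direction depends on the probe set.

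Kinesin motors gave the smallest median in CD4+ TEM cells, 1.88, with 6 of 6 called higher, and 2.83 in CD8+ TEM cells, with 4 higher and 1 lower. *Kif11* (Eg5), which pushes spindle poles apart, read 3.76 and 3.64 in naïve CD4+, 7.86 and 8.61 in CD4+ TEM, 8.06 and 7.14 in memory, 3.50 and 3.94 in naïve CD8+, and 8.18 and 8.27 in CD8+ TEM cells. The CD4+ rise was 4.54 (SE 0.34, adjusted p = 3.85e-05) and the CD8+ rise 4.51 (SE 0.34, adjusted p = 2.52e-05). *Kif2c*, which depolymerises microtubules at centromeres, rose by 1.91 and 3.60, *Kif4* of the central spindle by 1.85 and 2.95, and *Kif20a*, which carries the passenger complex to the midzone, by 2.53 and 2.71. The other *Kif2c* probe sets gave 0.45 and 1.52, 1.24 and 0.10, and 1.0 and 0.48. Its size, and the lineage in which it rose more, thus depend on the probe set. *Kif15* was dim everywhere, at 3.10 and 3.18 in naïve CD4+, 3.65 and 4.64 in CD4+ TEM, 3.34 and 3.27 in memory, 2.89 and 2.86 in naïve CD8+, and 3.37 and 3.46 in CD8+ TEM cells. Its CD4+ TEM call (1.0, SE 0.28, adjusted p = 0.0294) was lost without CD4+ TEM replicate 2 (0.51, adjusted p = 0.0723), either naïve CD4+ array (0.123 and 0.104) or either CD8+ TEM array (0.0516). It was not called in memory (0.16, adjusted p = 0.738) or CD8+ TEM cells (0.54, adjusted p = 0.176), although the latter was called without either CD4+ TEM array (0.0164).

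Of 7 spindle assembly and cytokinesis genes, 7 rose in CD4+ TEM, 7 in memory and 6 in CD8+ TEM cells, with medians of 5.16, 5.04 and 3.77. *Tpx2*, which activates Aurora A and nucleates spindle microtubules, read 2.99 and 3.85 in naïve CD4+, 10.01 and 10.16 in CD4+ TEM, 9.88 and 9.87 in memory, 3.91 and 4.41 in naïve CD8+, and 9.99 and 9.83 in CD8+ TEM cells. Its log2 fold change of 6.67 (SE 0.28, adjusted p = 1.88e-06) was the largest of all members in CD4+ TEM cells, and it was 5.75 (SE 0.28, adjusted p = 3.17e-06) in CD8+ TEM cells. *Hmmr* and *Nusap1*, which bundle and anchor spindle microtubules, rose by 6.23 and 6.23 in CD4+ and by 5.38 and 5.64 in CD8+ TEM cells. *Ect2*, the exchange factor that activates RhoA at the division plane, read 6.06 to 6.84 on the naïve arrays and 10.02 to 10.17 on the cultured arrays, and rose by 3.61 in CD4+ and 3.77 in CD8+ TEM cells. *Anln* (anillin, of the contractile ring) rose by 3.18 and 3.63.

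Of the condensin and chromosome structure genes, 6 of 7 rose in each cultured group. *Top2a*, the topoisomerase that untangles sister DNA, read 6.06 and 6.04 in naïve CD4+, 10.70 and 10.79 in CD4+ TEM, 11.09 and 10.74 in memory, 6.57 and 6.75 in naïve CD8+, and 11.16 and 10.94 in CD8+ TEM cells. It rose by 4.70 (SE 0.16, adjusted p = 7.9e-07) in CD4+ and 4.40 (SE 0.16, adjusted p = 9.58e-07) in CD8+ TEM cells. *Ncapg*, a subunit of condensin I, read 4.81 to 6.29 on the naïve arrays and 10.18 to 10.82 on the cultured arrays, and rose by 4.97 and 4.59. *Ncaph*, which closes the condensin I ring, rose by 2.46 and 2.47.

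*Mki67*, whose protein Ki-67 coats mitotic chromosomes and is the usual marker of cycling cells, had its own order of groups. It read 4.61 and 4.28 in naïve CD4+, 7.37 and 7.24 in CD4+ TEM, 8.44 and 7.78 in memory, 6.25 and 6.60 in naïve CD8+, and 8.53 and 8.82 in CD8+ TEM cells. No neighbouring groups in that order overlapped. The rise was 2.86 (SE 0.25, adjusted p = 8.25e-05) in CD4+ TEM, 3.67 (SE 0.25, adjusted p = 3.12e-05) in memory and 2.25 (SE 0.25, adjusted p = 0.000191) in CD8+ TEM cells.

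*Smc4* was the member that fell in every cultured group, while *Smc2*, its partner in both condensins, rose. *Smc4* read 10.83 and 10.83 in naïve CD4+, 9.64 and 9.73 in CD4+ TEM, 10.14 and 9.70 in memory, 12.48 and 12.38 in naïve CD8+, and 9.90 and 9.83 in CD8+ TEM cells. Both naïve groups lay above all cultured arrays, and on this probe set the naïve CD8+ arrays were the highest. Another *Smc4* probe set of similar signal had the naïve groups the other way. It read 11.14 and 11.12 in naïve CD4+ and 10.73 and 10.78 in naïve CD8+ cells. The remaining one was higher in naïve CD8+ cells. The fall was -1.14 (SE 0.17, adjusted p = 0.00133) in CD4+ TEM, -0.91 (SE 0.17, adjusted p = 0.00543) in memory and -2.57 (SE 0.17, adjusted p = 1.12e-05) in CD8+ TEM cells. All 3 *Smc4* probe sets decreased, by -1.58 and -1.09 in CD4+ TEM and by -2.03 and -1.33 in CD8+ TEM cells for the other two. With the arrays of the compared groups alone the memory fall was not called (adjusted p = 0.0531). *Smc2* changed by 1.41 (SE 0.17, adjusted p = 0.000558) in CD4+ and 1.20 (SE 0.17, adjusted p = 0.000788) in CD8+ TEM cells.

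The difference between the CD4+ and CD8+ changes was tested as an interaction term. It was positive for 6 of 48 members, which rose more in CD4+ cells or, for *Smc4*, fell less, and negative for 1, against 8.03% and 4.49% of all genes. The members' median difference was 0.40, and that of all genes -0.04. For the other 41 members the difference was not called. Over all 48 members, however, its 95% interval had a median width of 0.90 to each side and lay within 2-fold in either direction for only 9.

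**Figure D3:**
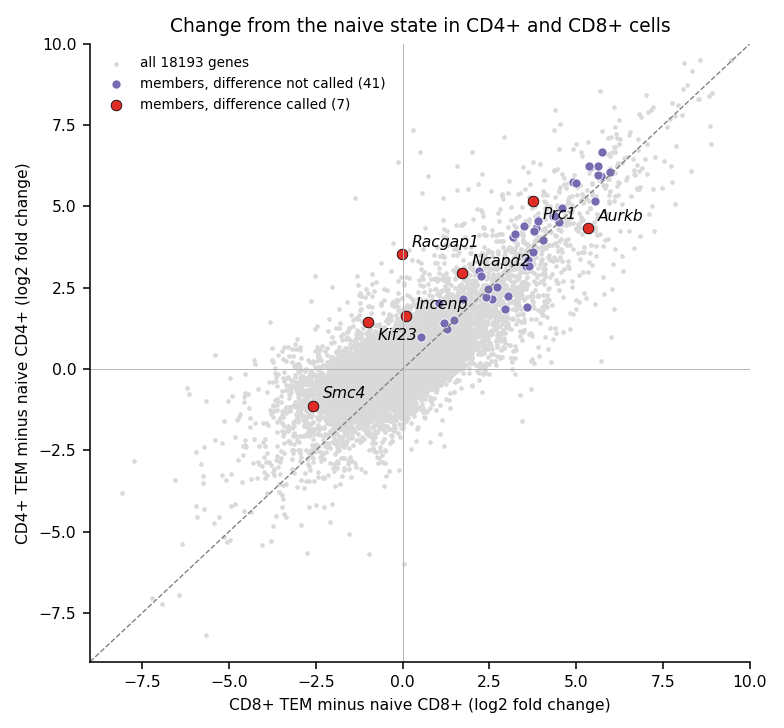
Log2 fold change from naïve to TEM cells in CD8+ (horizontal) and CD4+ cells (vertical) for all 18193 genes (grey), the 41 members whose difference was not called (purple) and the 7 called (red); the dashed line marks equal change. Most members lie far up near the line, and *Racgap1*, *Kif23* and *Incenp* lie left, with little or no rise in CD8+ cells.

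*Racgap1* and *Kif23* gave the largest differences. *Racgap1*, a GTPase-activating protein, and *Kif23*, a kinesin, together form centralspindlin, which bundles the central spindle and recruits ECT2 for cytokinesis. *Racgap1* read 5.55 and 5.53 in naïve CD4+, 8.95 and 9.19 in CD4+ TEM, and 9.10 and 8.80 in memory cells, but 9.29 and 9.22 in naïve CD8+ and 9.36 and 9.12 in CD8+ TEM cells. Naïve CD4+ cells were the one low group, and the naïve CD8+ arrays lay among the cultured arrays. The CD4+ rise was 3.53 (SE 0.17, adjusted p = 3.24e-06), the CD8+ change -0.01 (SE 0.17, adjusted p = 0.961) and the difference 3.54 (SE 0.23, adjusted p = 0.000386). A second probe set showed the same picture, with changes of 3.88 and 0.41.

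*Kif23* read 6.59 and 6.66 in naïve CD4+, 7.77 and 8.36 in CD4+ TEM, 8.08 and 7.42 in memory, 8.90 and 9.32 in naïve CD8+, and 8.41 and 7.82 in CD8+ TEM cells. It was highest in naïve CD8+ cells, whose arrays did not overlap any other group. It rose by 1.44 (SE 0.31, adjusted p = 0.0102) in CD4+ TEM and fell by 1.0 (SE 0.31, adjusted p = 0.0354) in CD8+ TEM cells, a difference of 2.44 (SE 0.44, adjusted p = 0.0117). The CD8+ fall was not called without naïve CD4+ replicate 1 or 2 (adjusted p = 0.0571), naïve CD8+ replicate 1 (0.0541) or 2 (0.176), or CD8+ TEM replicate 2 (0.215), nor with the mean of all 3 probe sets (-0.33, adjusted p = 0.363). With that mean the difference was 1.08 (adjusted p = 0.0898). The CD4+ rise was likewise not called without naïve CD4+ replicate 1 (0.0581) or 2 (0.0519) or CD4+ TEM replicate 2 (0.0698).

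The other called differences were smaller. *Incenp* differed by 1.53 (SE 0.35, adjusted p = 0.0261), but by 0.41 (adjusted p = 0.429) with the mean of its probe sets and by 0.73 (adjusted p = 0.389) with one that has no several-transcript suffix. The difference was called for *Smc4* at 1.42 (SE 0.23, adjusted p = 0.0079; 0.45 and 0.25 for its other probe sets), *Prc1* at 1.41 (SE 0.38, adjusted p = 0.0493) and *Ncapd2* at 1.24 (SE 0.26, adjusted p = 0.0182). *Prc1*, which crosslinks the antiparallel microtubules of the midzone, read 4.94 and 5.37 in naïve CD4+ and 6.78 and 6.10 in naïve CD8+ cells, but 10.32 and 10.30 in CD4+ and 10.20 and 10.19 in CD8+ TEM cells. *Ncapd2*, a condensin I subunit, read 5.90 and 6.39 in naïve CD4+, 7.53 and 7.47 in naïve CD8+, 9.06 and 9.12 in CD4+ TEM, and 9.19 and 9.22 in CD8+ TEM cells. For *Prc1*, *Ncapd2*, *Incenp* and *Racgap1* the TEM groups were close and the naïve groups apart. *Aurkb* was the reverse, with a difference of -1.03 (SE 0.25, adjusted p = 0.0364), similar naïve levels and a higher CD8+ TEM level. The calls of *Racgap1*, *Smc4* and *Kif23* held whichever array was left out. Those of *Racgap1* and *Smc4* held in the other alternatives too, whereas the call of *Kif23* was lost with the mean of its probe sets, as above. The call of *Aurkb* was lost without any 1 of 7 arrays, that of *Prc1* without any 1 of 7, that of *Incenp* without any 1 of 6 and that of *Ncapd2* without any 1 of 4.

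**Figure D4:**
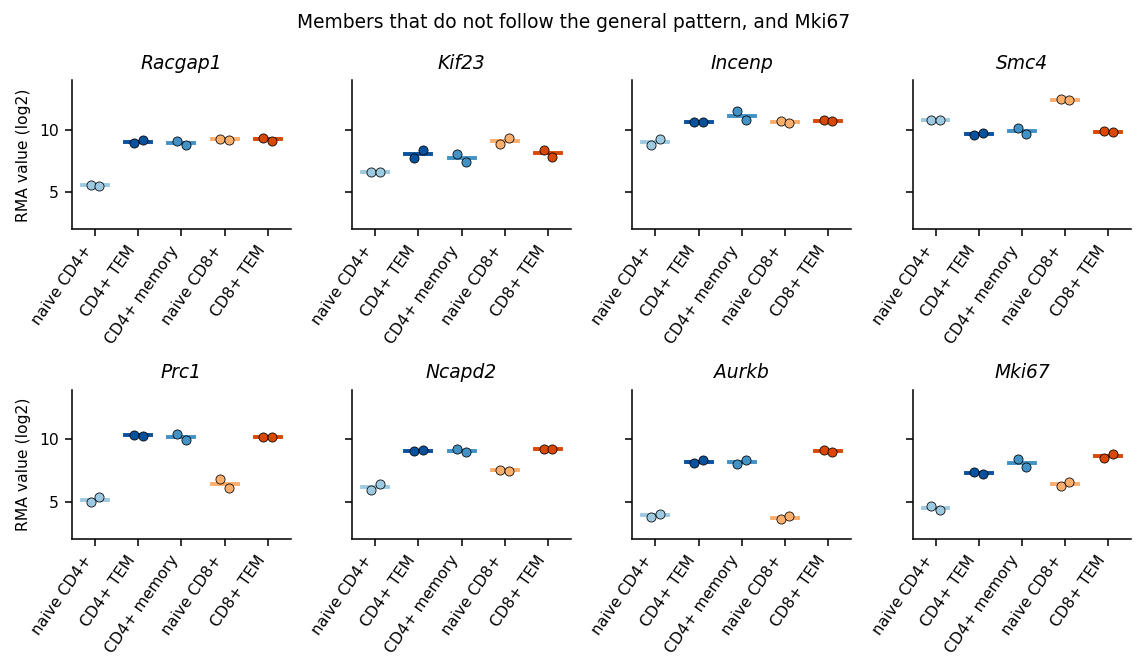
RMA value (log2, vertical axis) of the 7 members whose changes differed between CD4+ and CD8+ cells, and of *Mki67*, on each array; points are arrays, bars the mean of 2. On the probe sets used, *Racgap1* is low only in naïve CD4+ cells, *Kif23* and *Smc4* are highest in naïve CD8+ cells, and *Aurkb* is highest in CD8+ TEM cells.

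Between the naïve groups themselves 16 of 48 members were called higher in CD8+ than in CD4+ cells and 1, *Ttk*, lower, against 13.9% and 6.65% of all genes. The median difference was 0.66, and -0.03 over all genes. The arrays of the 2 groups did not overlap for 29 members higher and 2 lower in CD8+ cells, against 29.0% and 29.6% of all genes. The largest differences were those of *Racgap1* (3.71, SE 0.17, adjusted p = 3.11e-05), *Kif23* (2.49, SE 0.31, adjusted p = 0.00122), *Mki67* (1.98, SE 0.25, adjusted p = 0.00122), *Incenp* (1.64, SE 0.24, adjusted p = 0.00275) and *Smc4* (1.60, SE 0.17, adjusted p = 0.000542). That of *Smc4* was reversed on another of its probe sets, as given above. That of *Incenp* was not called with the mean of its probe sets (0.47, adjusted p = 0.15) or with one without a several-transcript suffix (1.09, adjusted p = 0.0515). *Ndc80*, *Ncapd2*, *Prc1*, *Ccnb2*, *Plk1*, *Cdc20*, *Birc5*, *Kif20a*, *Ccna2*, *Melk* and *Top2a* were higher by 0.61 to 1.48, but not all of these calls held. Those of *Ndc80*, *Ccnb2*, *Cdc20*, *Birc5* and *Kif20a* were not checked singly in the alternatives. *Top2a* was at -0.53 on its brightest probe set without a several-transcript suffix and lost its call without any 1 of 8 arrays. *Ccna2* was at 0.46 (limma adjusted p = 0.138) with the mean of its probe sets and at 0.48 (adjusted p = 0.088) with quantile normalization again. *Melk* was not called with an intensity trend (limma adjusted p = 0.0766) or with the compared groups alone (0.0901). *Prc1* was not called with quantile normalization again (0.0522). *Melk* and *Plk1* also lost their calls without either naïve CD4+ array, and *Plk1* and *Prc1* without naïve CD8+ replicate 1. The call of *Prc1* was lost without naïve CD4+ replicate 1 too (1.07). That of *Ccna2* was lost without naïve CD4+ replicate 2 (0.755) or naïve CD8+ replicate 2 (0.675), and that of *Melk* without naïve CD8+ replicate 2 (0.55). *Cdk1* (0.23, SE 0.33, adjusted p = 0.712) and *Aurkb* (-0.17, SE 0.18, adjusted p = 0.599) were not called. Without naïve CD8+ replicate 2, the array with B cell and myeloid signal, 10 members were called higher. The lower value of *Ttk* (-0.88, SE 0.26, adjusted p = 0.0497) sat at the threshold, and its call was lost without any 1 of 9 of the 10 arrays. The other *Ttk* probe set went the opposite way, at 3.18 and 3.28 in naïve CD4+ and 4.43 and 4.65 in naïve CD8+ cells. The part of RNA quality or of other cells in these naïve differences was not tested.

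Between CD8+ and CD4+ TEM cells 4 of 48 members were called higher in CD8+ cells and 0 lower, against 3.53% and 2.19% of all genes. They were *Mki67* (1.37, SE 0.25, adjusted p = 0.021), *Kif20a* (1.10, SE 0.20, adjusted p = 0.0213), *Aurkb* (0.86, SE 0.18, adjusted p = 0.0333) and *Nek2* (0.64, SE 0.15, adjusted p = 0.0429). *Kif20a* read 6.69 and 6.53 in CD4+ and 7.75 and 7.66 in CD8+ TEM cells, and *Nek2*, a centrosome kinase, 6.37 and 6.55 against 7.0 and 7.20. All 4 calls were lost without any 1 of the 4 TEM arrays, and 2 members were called without either naïve CD4+ array. The members' median was 0.22 and that of all genes 0.03. The arrays did not overlap for 32 members higher and 5 lower in CD8+ TEM cells, against 32.3% and 24.5% of all genes, and the 95% intervals of 27 of 48 members lay within 2-fold in either direction. Of the 5 groups, CD8+ TEM cells had the highest mean for 32 members, memory cells for 8, CD4+ TEM cells for 5, naïve CD8+ cells for 3 and naïve CD4+ cells for 0. This order was not counted over all genes, so it is not shown to be particular to the mitotic list.

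Between CD4+ TEM and CD4+ memory cells 0 of 48 members were called in either direction by limma, against 3.89% of all genes higher and 1.64% lower in TEM cells. At an unadjusted limma p under 0.05 the counts were 4 higher and 1 lower of 48 members, against 2059 higher and 1649 lower of 18193 genes. The median was 0.07 for members and -0.04 for all genes, and the differences ran from -0.81 for *Mki67* (SE 0.25, adjusted p = 0.114) to 0.84 for *Kif15* (SE 0.28, adjusted p = 0.138). *Cenpa* was at 0.79 (SE 0.19, adjusted p = 0.0511), with a probe set dependence as above. The arrays did not overlap for 11 members higher and 8 lower in TEM cells, against 22.7% and 26.4% of all genes. The 95% intervals lay within 2-fold in either direction for 24 of 48 members, with a median width of 0.63 to each side. For the other 24 a difference of more than 2-fold was not excluded, and that of *Spc25* ran from -2.01 to 0.97. Memory replicate 1 was above replicate 2 for 35 of 48 members, by a median of 0.28, which widens these intervals. Without memory replicate 2 *Mki67* was called lower in TEM cells (-1.14, adjusted p = 0.0363), and 2 members were called higher without memory replicate 1. *Cenpa* was called higher without either naïve CD4+ array (adjusted p = 0.0468), and *Kif15* without CD4+ TEM replicate 1 (adjusted p = 0.00926).

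The size of a change depended on the probe set for many members, and its direction for fewer. The 48 members had 110 probe sets, 15 having 1 and 33 several. Of all 110, 99 changed upward in CD4+ TEM, 97 in memory and 100 in CD8+ TEM cells. *Aurka*, *Cdca3*, *Cenpa*, *Foxm1*, *Incenp*, *Kif23* and *Tpx2* had probe sets of both directions in CD4+ TEM cells. Of the 82 probe sets that reached 6 on any array, 78 changed upward in CD4+ TEM cells, and the others belonged to *Cenpa* and *Smc4*. For 25 of the 33 members with several, the largest and smallest CD4+ TEM change differed by more than 1 on the log2 scale, in part between a bright and a dim probe set. *Tpx2* gave 6.67 with the probe set used and 4.34 with another, *Nusap1* 6.23 and 1.82, *Bub1* 5.93 and 3.22, and *Anln* 3.18 and 0.42. For 23 of the 48 members the probe set used carries a suffix (_a_at, _s_at or _x_at) that was taken here as marking a match to several transcripts. The suffixes were pooled, and the risk each carries was not told apart. Those used for *Foxm1*, *Incenp*, *Cdc20*, *Kif2c* and *Ncaph* end in _x_at.

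Genes around the mitotic list were read from lists of other cell cycle genes. Of 50 other periodic mitosis genes 39 were called higher and 0 lower in CD4+ TEM, 39 and 0 in memory, and 37 and 2 in CD8+ TEM cells, with medians of 2.54, 2.54 and 2.58. *Pbk*, a mitotic kinase, rose by 5.65 in CD4+ and 5.86 in CD8+ TEM cells. *Cep55*, which recruits the abscission machinery to the midbody, rose by 6.0 and 4.59, *Trip13*, an ATPase that turns off the checkpoint, by 4.28 and 4.54, and *Aspm* of the spindle poles by 6.11 and 4.36.

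The APC/C core, cohesin and the constitutive mitotic apparatus did not follow. Of these 41 genes 10 were called higher and 4 lower in CD4+ TEM, and 8 higher and 13 lower in CD8+ TEM cells, with medians of 0.01 and 0.10. *Mastl*, the kinase that restrains the phosphatase PP2A in mitosis, rose by 3.37 and 3.61, and *Anapc11*, the catalytic RING subunit of the APC/C, by 1.07 and 2.04. *Nipbl*, the cohesin loader, fell by 2.79 and *Numa1*, which anchors spindle poles, by 2.49 in CD8+ TEM cells. In CD4+ TEM cells they were at -0.80 (adjusted p = 0.111) and -0.43 (adjusted p = 0.0709). Like *Smc4* on the probe set used, both read highest in naïve CD8+ cells, at 11.28 and 11.29 for *Nipbl* and 12.03 and 12.06 for *Numa1*.

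Upstream regulators were mixed. Of 14 DREAM, MuvB and B-Myb genes 4 were higher and 2 lower in CD4+ TEM, and 4 higher and 3 lower in CD8+ TEM cells. *Mybl2* (B-Myb) rose by 2.24 and 2.44, and *Lin52* of MuvB fell by 2.05 and 2.25. *Tfdp1*, the partner of E2F factors, and *Rb1* rose by 0.98 and 0.80 in CD4+ and by 1.75 and 1.61 in CD8+ TEM cells. Of 13 genes of E2F factors, G1 cyclins and their kinases 9 rose in CD4+ and 11 in CD8+ TEM cells and 0 fell, with medians of 2.38 and 1.87. *E2f8* and *E2f7*, atypical E2F factors that repress transcription, rose by 5.30 and 3.02 in CD4+ and by 4.79 and 3.71 in CD8+ TEM cells. *E2f1*, an activator of S phase genes, rose by 3.72 and 4.12, and *Ccnd1* (cyclin D1) by 2.94 and 4.03.

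Of 24 DNA replication genes 18 rose and 0 fell in CD4+ TEM, and 17 rose and 1 fell in CD8+ TEM cells, with medians of 1.38 and 1.24. *Tk1* (thymidine kinase) rose by 5.64 and 5.05, *Cdc45* of the replicative helicase by 2.62 and 3.84, *Cdc6*, which loads that helicase, by 4.17 and 3.40, and *Rrm2* (ribonucleotide reductase) by 3.56 and 3.23. *Cdc6* was uneven in naïve CD8+ cells, at 7.78 and 4.32.

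**Figure D5:**
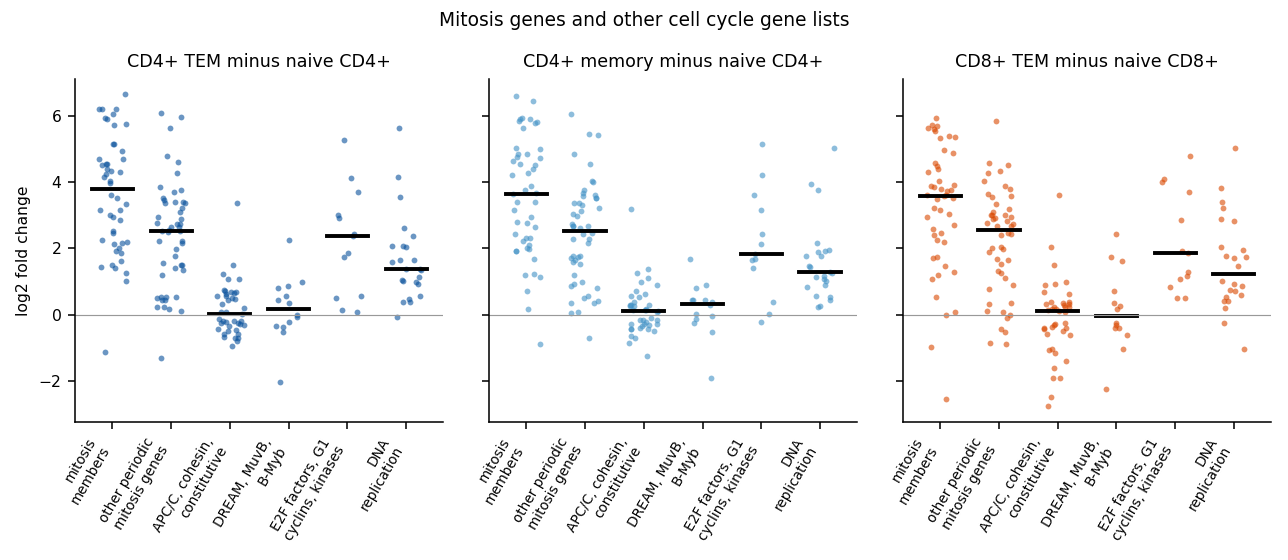
Log2 fold change of each gene (points) in the mitotic list and in 5 other cell cycle lists, for CD4+ TEM, CD4+ memory and CD8+ TEM cells against their naïve cells; the black bar is the median of a list. The mitosis members have medians of 3.79, 3.66 and 3.61, and the constitutive genes lie around 0.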

How the data were processed

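RNA of sorted T cells was hybridised to 10 arrays. RMA normalization was done by the authors in BRB-ArrayTools (version not given in the sources used here), and the deposited values are on the log2 scale, from 1.68 to 14.86. Raw intensities were not used here. A value carries no read depth, and the 2 arrays per group limit the precision. An exact permutation test of 2 against 2 arrays cannot go below p = 0.333, so tests share their spread across genes.

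Of 45101 probe sets, 64 are controls, 34945 have 1 gene symbol, 932 have several and 9160 are unnamed here; the last 2 kinds were left out. Symbols of 34741 were updated through Entrez identifiers. A group-means model over all 10 arrays was fitted with limma 3.58.1 in R 4.3.3, with moderated variances (eBayes) and p-values adjusted by Benjamini-Hochberg across 18193 genes, for 7 comparisons. A call is an adjusted p under 0.05. Figures were drawn with matplotlib 3.10.9. The script was tested on simulated data.

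The members and the other lists were chosen with earlier results of these data known. Values on every array are given for the member with the highest mean value and the one with the largest CD8+ TEM change in each role, for reference members (*Mki67*, *Cdk1*, *Plk1*, *Aurkb*, *Top2a*, *Foxm1*), for members not called, and for the largest differences. Of each other list, up to 4 called genes with the largest CD8+ TEM change are named. *Ebf1*, *Ms4a1*, *Pax5* and *Lyz2* are marker genes, and *Aurka*, *Melk*, *Kif20a*, *Nek2*, *Spc25*, *Smc2* and *Cdc6* were singled out after their values were seen. Promoter windows are RefSeq's. Alternatives covered the probe set, filters on variation and on dim genes, normalization, moderation, the replicate block, the arrays in the fit, and leaving out each array.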

Additional observations from a re-analysis of the deposited data

Results flagged for a closer look

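For 7 members the change from naïve to TEM cells differed between CD4+ and CD8+ cells by the interaction term of limma. The CD4+ change minus the CD8+ change was 3.54 for *Racgap1* (adjusted p = 0.000386), 2.44 for *Kif23* (0.0117), 1.53 for *Incenp* (0.0261), 1.42 for *Smc4* (0.0079), 1.41 for *Prc1* (0.0493) and 1.24 for *Ncapd2* (0.0182), all on the log2 scale; *Smc4* fell in both cell types, and less in CD4+ cells. For *Aurkb* it was -1.03 (adjusted p = 0.0364). The share of genes with such a difference was 8.03% upward and 4.49% downward over all genes, beside 6 and 1 of 48 members.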

How the results depend on the processing

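Only the members chosen by the rule above for values on every array were checked singly, without *Kif15* in memory cells. Their changes from naïve to cultured cells kept direction in each of the 18 alternatives that held them, apart from *Cenpa* and the CD8+ change of *Racgap1*. The other members were not checked singly. Among these, the only unmarked probe set of *Cdca3* was dim. It changed by -0.44 in CD4+ TEM, -0.28 in memory and 0.22 in CD8+ TEM cells. The members' median for CD4+ TEM cells was 2.61 with the mean of all probe sets, 2.74 with probe sets not marked as matching several transcripts (40 members), 3.98 under either filter and 3.47 with quantile normalization again, and 3.58 to 3.84 without single arrays. For CD8+ TEM cells it was 2.81, 2.78 and 3.24 under the mean, the unmarked probe sets and quantile normalization (3.29 to 3.63 without single arrays), and for memory cells 2.47, 2.44 and 3.42 (3.41 to 3.90). The median difference of changes was 0.13 with the mean and 0.10 with unmarked probe sets. The median of naïve CD8+ against naïve CD4+ cells was 0.30, 0.46 and 0.46 under the mean, the unmarked probe sets and quantile normalization (0.44 to 0.76 without single arrays).

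Unmarked probe sets gave 2 lower members in CD4+ TEM and 2 in memory cells, and 3 higher and 0 lower for the difference. They gave 2 higher for CD8+ against CD4+ TEM, and 9 higher and 0 lower between naïve groups. Of the 16591 genes in that setting, 1696 were lower in CD4+ TEM and 1650 in memory cells. For the difference 1233 genes were higher and 734 lower, for CD8+ against CD4+ TEM 607 were higher, and between naïve groups 2161 were higher and 1022 lower. The mean of probe sets left 1 lower in CD8+ TEM cells and 0 lower between naïve groups, against 3189 and 1115 of 18193 genes. The variation filter gave 0 lower for the difference, against 546 of 7118 genes. The filter on dim genes gave 1 higher for TEM against memory, against 774 of 10052 genes. An intensity trend gave 0 lower for the difference, 2 higher for CD8+ against CD4+ TEM and 0 lower between naïve groups. Over all genes these counts were 1095, 751 and 1460. With the groups compared alone there were 2 lower for the difference, 0 in memory cells and 0 between naïve groups. Over all genes 1028, 1151 and 675 were lower. Without single arrays the counts ran from 3 to 9 higher and 0 to 2 lower for the difference, 1 to 2 lower in CD8+ TEM, 0 to 2 higher and 0 to 1 lower for TEM against memory, 0 to 5 higher and 0 to 1 lower for CD8+ against CD4+ TEM, and 10 to 17 higher and 0 to 2 lower between naïve groups. The 3 of the difference were reached without CD4+ TEM replicate 2 or either CD8+ TEM array, and the 10 without naïve CD8+ replicate 2.

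Replicate numbers did not pair the arrays, with correlations of deviations from -0.04 to 0.03 over 10 pairs of groups. With the replicate block 1 member was lower in CD8+ TEM cells, where *Kif23* was no longer called (limma adjusted p = 0.0527), and 0 between naïve groups. The difference had 5 higher and 1 lower, without *Prc1* (adjusted p = 0.0616), and *Kif23* was not called in memory cells (adjusted p = 0.0515). Over all genes the block gave 3078 lower in CD8+ TEM cells and 1091 lower between naïve groups. For the difference it gave 1347 higher and 708 lower.

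*Cenpa* turned with the mean of probe sets (-0.15 in CD4+ TEM, -0.35 in CD8+ TEM, -0.49 in memory) and with unmarked ones (-1.39, -0.96, -1.21, and -0.18 for TEM against memory). The CD8+ change of *Racgap1* was 0.26 with the mean, and ran from -0.14 to 0.10 without single arrays, turning to 0.02 without naïve CD8+ replicate 1 and to 0.10 without CD8+ TEM replicate 2. *Top2a* between naïve groups was -0.53 with unmarked probe sets. The cause was not tested. Quantile normalization moved the median of all genes from 0.02 to -0.11 in CD4+ TEM, from 0.06 to -0.07 in CD8+ TEM and from 0.08 to -0.06 in memory cells, and the calls over all genes from 2984 higher and 1841 lower to 2354 and 3135, from 3805 and 3121 to 3430 and 3659, and from 2448 and 1779 to 1933 and 2396.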
